A study of Mus musculus with 63 samples.

Results

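The 9 genes described here were Ptgds, Apod and 7 transcripts known from oligodendrocytes (Mobp, Mal, Trf, Cnp, Cldn11, Mag and Mog), which were 9 of the 20183 genes in a table of single cells from layer 2/3 of the mouse primary visual cortex (V1). Ptgds and Apod were chosen by their mean FPKM in light-sensitive cells, where they were among the highest genes, so their levels there, and their ratio to the other group, are descriptions. The cells came from male C57BL/6 mice, labelled wild type, at 70 days of age, and all were loaded with the calcium indicator Cal-520 AM and imaged under light anaesthesia while a light grating was shown. Light-sensitive (LS, n = 46) cells answered the grating with calcium transients in most trials, and non-light-sensitive (NS, n = 17) cells in at most 1 trial. Both groups lacked a genetic mark of cell type. The soma was sucked into a patch pipette and its RNA was amplified with Smart-seq2, a full-length protocol without molecular identifiers. No label names the mouse of a cell, so each group counted as 1 sample, SDs are the spread between cells, and no test was made.

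Ptgds encodes lipocalin-type prostaglandin D synthase, which makes prostaglandin D2 and is secreted into the cerebrospinal fluid, where it also carries small hydrophobic molecules. Apod encodes apolipoprotein D, another secreted lipocalin. Both are known from the fibroblasts of the leptomeninges (pia and arachnoid) and from oligodendrocytes, the cells that wrap axons in myelin. Mobp, Mal, Cnp, Mag and Mog encode proteins of the myelin sheath or of its maker, Cldn11 a tight-junction claudin of myelin that is also known from the arachnoid, and Trf transferrin, the iron carrier. A cortical neuron is not known for high levels of these 7 genes.

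The start regions of the pair that moved together, Ptgds and Apod, and of a claudin and a myelin gene are shown to let a reader compare them. Of the 9 genes, 8 matched an entry of RefSeq promoters on GRCm38.p6, which hold 250 bases before and 50 bases after a gene's start. Trf is named only. The capitals mark ACAAAG or its reverse complement CTTTGT, the core that SOX factors are known to bind. In these 4 windows it overlapped no other motif searched.

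Ptgds (chr2:25469700-25469999, minus strand): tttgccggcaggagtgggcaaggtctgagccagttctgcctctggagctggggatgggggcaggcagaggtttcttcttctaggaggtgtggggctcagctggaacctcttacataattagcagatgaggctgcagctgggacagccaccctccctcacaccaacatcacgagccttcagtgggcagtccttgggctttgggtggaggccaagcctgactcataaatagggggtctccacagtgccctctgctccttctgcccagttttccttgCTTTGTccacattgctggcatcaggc
Apod (chr16:31314759-31315058, minus strand): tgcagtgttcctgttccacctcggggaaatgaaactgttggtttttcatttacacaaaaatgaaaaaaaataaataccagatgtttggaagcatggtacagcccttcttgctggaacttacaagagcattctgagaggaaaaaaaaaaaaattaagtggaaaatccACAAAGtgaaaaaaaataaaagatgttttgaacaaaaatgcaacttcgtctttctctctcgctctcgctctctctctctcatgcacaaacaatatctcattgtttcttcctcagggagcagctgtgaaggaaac
Cldn11 (chr3:31149670-31149969, plus strand): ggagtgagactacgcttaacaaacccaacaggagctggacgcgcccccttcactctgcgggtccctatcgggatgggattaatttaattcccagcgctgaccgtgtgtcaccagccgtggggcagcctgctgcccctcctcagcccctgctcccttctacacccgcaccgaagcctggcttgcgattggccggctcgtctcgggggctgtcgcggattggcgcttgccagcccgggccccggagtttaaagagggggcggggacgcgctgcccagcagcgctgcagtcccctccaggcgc
Mobp (chr9:120149492-120149791, plus strand): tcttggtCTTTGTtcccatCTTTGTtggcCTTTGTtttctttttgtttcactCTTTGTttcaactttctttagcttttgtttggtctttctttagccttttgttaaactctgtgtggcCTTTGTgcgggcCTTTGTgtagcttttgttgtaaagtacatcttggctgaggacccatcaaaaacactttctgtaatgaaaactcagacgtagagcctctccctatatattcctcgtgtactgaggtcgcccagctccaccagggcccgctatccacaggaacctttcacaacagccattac

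The core stood 1 time each in the Ptgds and Apod windows, 6 times in the Mobp window and 0 times in that of Cldn11. Of all 32851 promoters of this length, 18.7% held it at least 1 time, and 1 held it 6 times or more, which was that of Mobp. A TATA box (TATAAA, in 13.6% of all promoters) and a FOX core (TGTTTAC, in 3.65%) were searched on both strands and were found in 0 of the 4 windows. A GC box (GGGCGG, in 35.7%) stood 1 time and a CCAAT box (CCAAT, in 37.4%) 2 times in the Cldn11 window, and neither in the other 3. A match is a description of letters and not a site in use.

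Each deposited value was a gene's FPKM (fragments per kilobase of exon, scaled to the total of the library) in 1 cell. The filters that the study describes kept 35 LS and 12 NS cells, on which all values below rest unless stated. All but the cDNA filter were applied to the table. FPKM do not show cDNA concentration, and LS_1 and NS_1 were set as the 2 cells that the study dropped for it. NS_1 had 10190 FPKM of Ptgds, the highest of all 17 NS cells, so the NS values of Ptgds depend on that choice. A ratio with only NS_1 put back was not computed. The study reports more LS cells kept, so this set is not the study's own. Reads recovered from the FPKM steps came to 366555 to 2509572 per LS cell and 149117 to 882011 per NS cell, and the median cell had 5890 and 3061.5 genes above 1 FPKM. NS cells carried more signal from 1031 odorant, vomeronasal and taste receptor genes, which cortical neurons are not known to use: their mean FPKM had a median of 0.258 over LS cells and of 4.25 over NS cells. Such genes had a value above 0 in 2.22% of LS cells and 6.58% of NS cells on average, but their exons are shorter (median 966 bases) than those of the 9 genes (median 2778 bases). The part of this background in the results below was not tested.

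Ptgds (chromosome 2, 25466709 to 25470046, minus strand, GRCm38) was near the top of the LS transcriptome and low in most NS cells. Its FPKM over the LS cells had a minimum of 0, a median of 3728 and a maximum of 24668 in the cell LS_44, and the mean of 5714 ± 6362 (SD, n = 35) ranked 3 among all genes. In the NS cells the minimum was 0, the median 45.2 and the maximum 6940 in NS_9, with a mean of 732 ± 1971 (SD, n = 12) and a rank of 20. The groups overlapped: 11 of 35 LS cells lay above NS_9 and 27 above the next NS cell at 723 FPKM, and the other 8 lay below it. At least 1 read of Ptgds was present in 33 of 35 LS cells, or 94.3% with an exact binomial 95% interval of 80.8 to 99.3%, and NS cells had it in 10 of 12 (83.3%, 51.6 to 97.9%). LS_24 and LS_31 were the LS cells without one. Ptgds lay above the mean FPKM of the receptor genes of the same cell in 33 LS and 7 NS cells. In the median LS cell Ptgds took 0.726% of the reads on listed genes, and in the highest 4.80%. NS_9 alone held 79.0% of the NS sum, so that the NS mean was 167 FPKM without it.

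Apod (chromosome 16, 31296192 to 31314808, minus strand) had the same layout at a lower level. Its FPKM in LS cells had a minimum of 0, a median of 656 and a maximum of 13152 in LS_43, and its mean of 1576 ± 2538 (SD, n = 35) ranked 9. In NS cells the minimum was 0, the median 1.18 and the maximum 1038, again in NS_9, with a mean of 129 ± 312 (SD, n = 12). Of the 35 LS cells, 12 lay above NS_9 and 20 above the next NS cell at 434 FPKM. A read was present in 34 of 35 LS cells (97.1%, interval 85.1 to 99.9%), while NS cells had one in 7 of 12 (58.3%, 27.7 to 84.8%). Apod lay above the receptor mean of the same cell in 34 LS and 5 NS cells. Both genes were carried by many reads (447957 of Ptgds and 166024 of Apod over the LS cells), so the counting error of reads was small beside the spread between cells. Reads without molecular identifiers include amplified copies, so the error of capture and amplification is not covered. The intervals of shares treat cells as independent draws and cover the sampling of cells only, not the counting of reads or differences between mice.

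**Figure D1:**
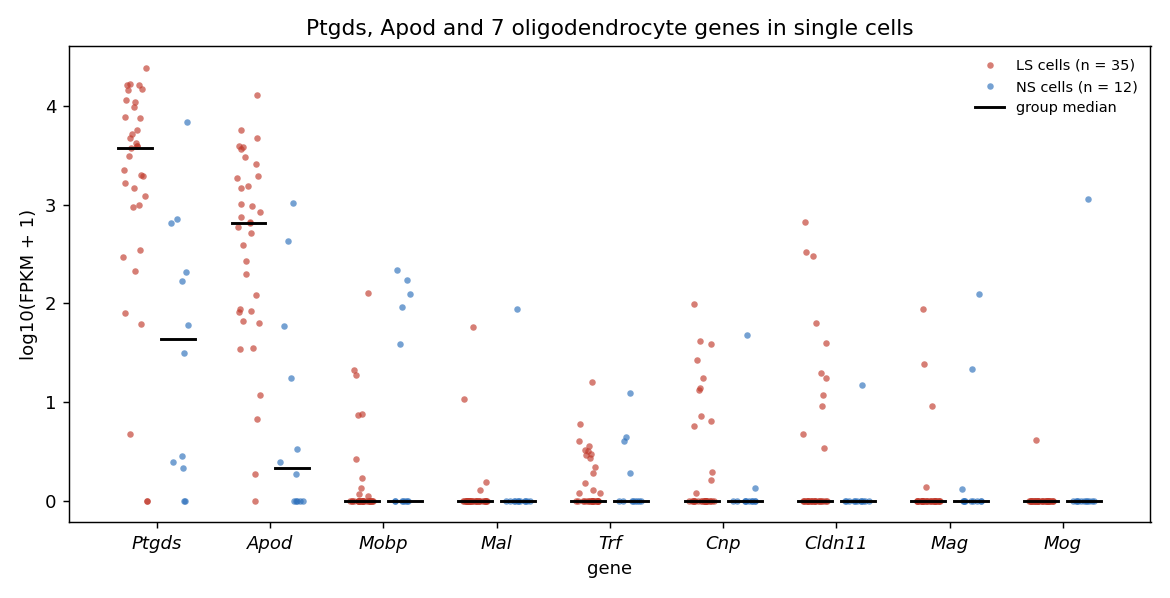
Expression of the 9 genes in single cells, as log10(FPKM + 1) on the vertical axis, with 1 point per cell (35 LS cells in red, 12 NS cells in blue) and a black bar at the group median. Ptgds and Apod sit high in most LS cells, with medians of 3728 and 656 FPKM, while the 7 oligodendrocyte genes have a median of 0 in both groups.

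Ptgds and Apod co-varied cell by cell. Spearman's rho of their FPKM was 0.78 over the 35 LS cells (Pearson's r of log2(FPKM + 1) 0.83), and it was 0.76 over the 12 NS cells (r 0.81). With the number of genes detected held constant as a partial correlation, rho was 0.78 in LS and 0.74 in NS cells. Among all genes with a value in at least 5 LS cells, Apod ranked 2 by its rho with Ptgds, and Ptgds ranked 1 by its rho with Apod. Points of such a correlation share the library total, and cells of a mouse may share more, so it is given without a p-value. The ratio of the genes was not fixed: where both were above 0 in an LS cell (33 cells), Ptgds was the higher in 28, with a median ratio of 6.26, a lowest of 0.458 in LS_28 and a highest of 69.5 in LS_23. The SD of the log2 ratio was 1.95, below that of either gene (2.79 for Ptgds and 3.06 for Apod on the log2 scale). Ptgds showed a rho of 0.34 with the reads of a cell and of -0.17 with its genes detected, and Apod of 0.12 and -0.054.

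**Figure D2:**
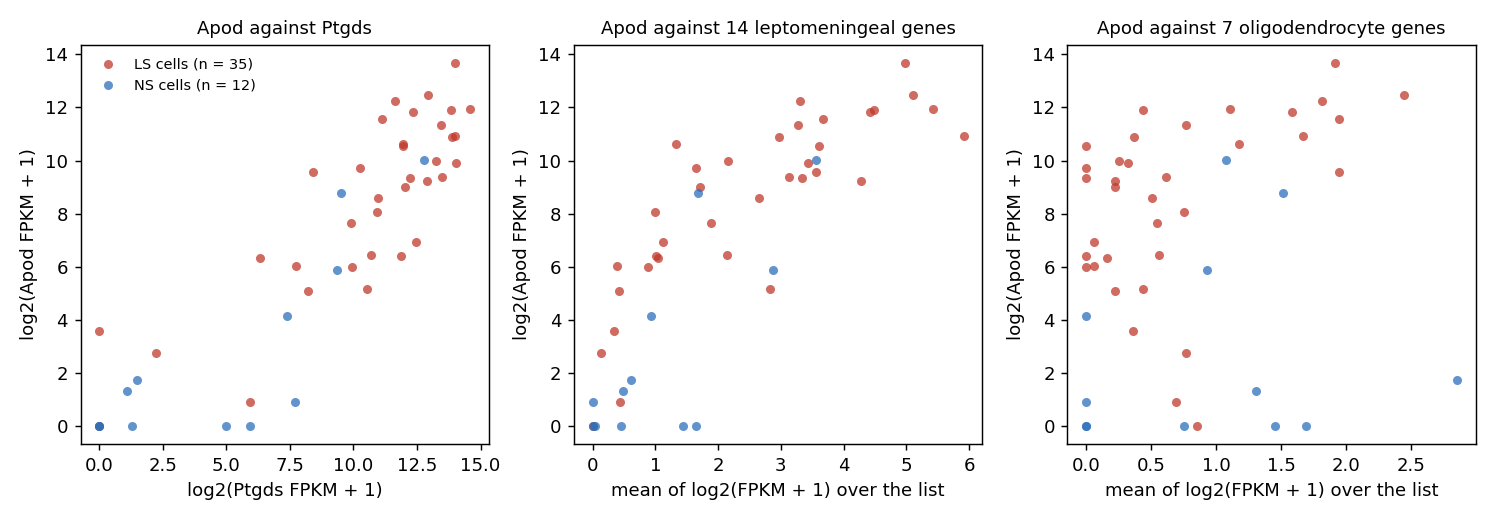
Apod in each cell, as log2(FPKM + 1), against Ptgds (left), the mean of log2(FPKM + 1) over 14 leptomeningeal genes (middle) and over the 7 oligodendrocyte genes (right), for 35 LS (red) and 12 NS cells (blue). Over LS cells Apod climbs with Ptgds (rho 0.78) and with the leptomeningeal genes (rho 0.85), and less with the oligodendrocyte genes (rho 0.46).

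The genes of compact myelin and its makers were absent from most cells. Mobp, a small basic protein of compact myelin, had a read in 10 of 35 LS cells (28.6%, 14.6 to 46.3%), with a minimum and a median of 0 and a maximum of 128 FPKM in LS_39. In NS cells it was present in 5 of 12 (41.7%, 15.2 to 72.3%), with a median of 0 and a maximum of 216 FPKM in NS_14, and those 5 cells all had at least 37.7 FPKM. The mean was 5.20 ± 21.8 (SD, n = 35) in LS and 53.4 ± 78.1 (SD, n = 12) in NS cells. Mobp was thus higher in NS cells, a group whose receptor-gene level was also higher, by a factor of 10.3. That factor became 33.6 without LS_39 and 7.43 without NS_14. The rho of Mobp with the receptor level was 0.35 over LS cells and -0.23 over NS cells.

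Mal, a proteolipid of myelin membranes, had a read in 4 of 35 LS cells (11.4%, 3.20 to 26.7%) and in 1 of 12 NS cells (8.33%, 0.211 to 38.5%). Its medians were 0, and its highest values were 57.0 FPKM in LS_42 and 87.3 FPKM in NS_11. Cnp, the cyclic nucleotide phosphodiesterase of oligodendrocyte cytoplasm, had a read in 13 of 35 LS cells (37.1%, 21.5 to 55.1%) and in 2 of 12 NS cells (16.7%, 2.09 to 48.4%). Its medians were 0 and its maxima 97.3 FPKM in LS_39 and 46.7 FPKM in NS_8. The highest cell held 84.5% of the LS sum of Mal and 37.3% of that of Cnp.

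Cldn11 was the member of this set with the largest LS excess. It had a read in 11 of 35 LS cells (31.4%, 16.9 to 49.3%) against 1 of 12 NS cells (8.33%, 0.211 to 38.5%). Its FPKM in LS cells had a median of 0 and a maximum of 664 in LS_43, followed by 329 in LS_4 and 299 in LS_41. The 1 NS cell with a value was NS_9, at 13.9 FPKM and 13 reads, which was also the NS cell with the highest Ptgds and Apod. The means were 41.5 ± 131 (SD, n = 35) in LS and 1.16 ± 4.01 (SD, n = 12) in NS cells.

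Mag and Mog encode surface proteins of myelin. Mag, the adhesion protein of the inner myelin wrap, had a read in 4 of 35 LS cells (11.4%, 3.20 to 26.7%) and in 3 of 12 NS cells (interval 5.49 to 57.2%), with maxima of 87.5 FPKM in LS_13 and 123 FPKM in NS_11. Mog, the glycoprotein of the outer myelin surface, had 8 reads in 1 LS cell (LS_38, 3.16 FPKM) and 453 reads in 1 NS cell (NS_15, 1136 FPKM). NS_15 had the highest mean FPKM of the receptor genes of all 63 cells, 21.2, and 16 receptor genes reached 1000 FPKM or more in an NS cell, against 0 in LS cells. Trf was present most often, in 15 of 35 LS cells (42.9%, 26.3 to 60.6%), while NS cells had it in 4 of 12 (33.3%, 9.92 to 65.1%), but at low levels, with a median of 0 and maxima of 14.96 FPKM in LS_43 and 11.4 FPKM in NS_9.

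The 7 oligodendrocyte genes were seldom found together. Of the 35 LS cells, 8 had none of them at 1 FPKM or more, 15 had 1 gene, 9 had 2, 2 had 3 and 1 had 4. Of the 12 NS cells, 4 had none, 3 had 1, 4 had 2 and 1 had 3. Over the 21 pairs of these genes, the median rho was -0.061 in LS cells (lowest -0.15, highest 0.36), and 0 pairs reached 0.4. In NS cells the median was -0.091, and 4 pairs reached 0.4, the highest being Mobp with Mag at 0.74, which were read together in 3 cells. In counts this sparse a weak rho carries little information, and these values are given as a description of scattered detection.

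**Figure D3:**
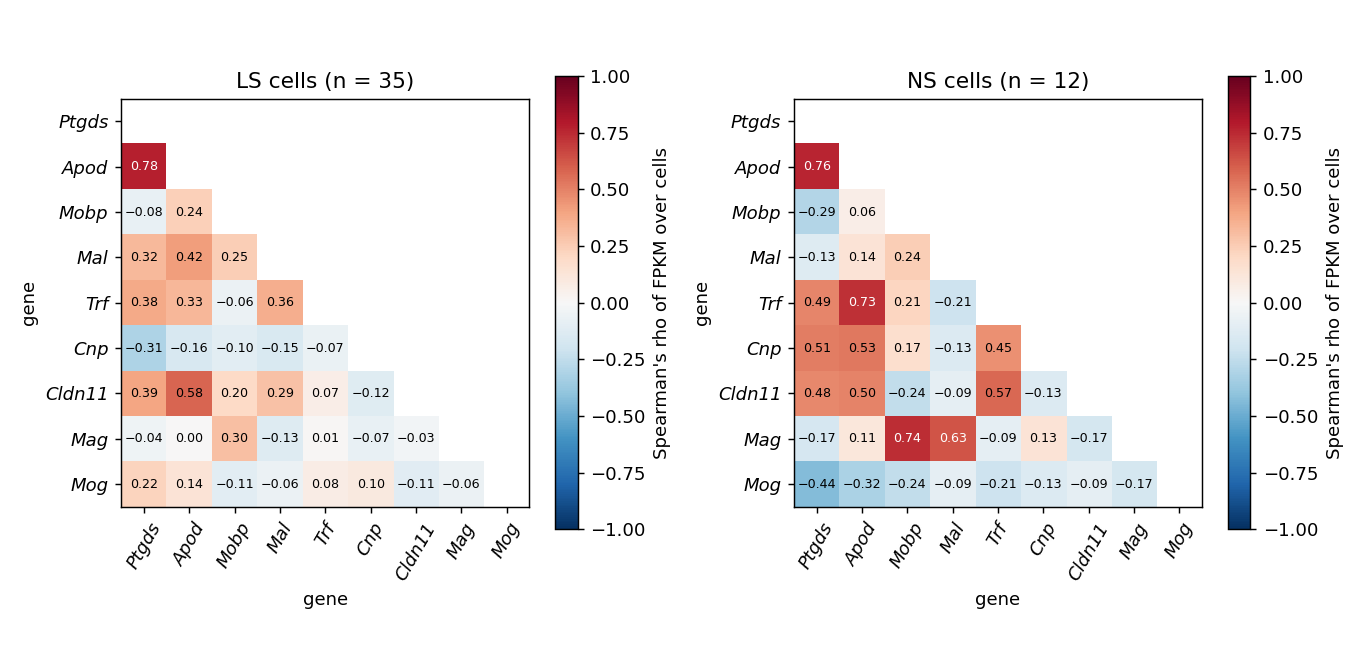
Spearman's rho of FPKM over cells for each pair of the 9 genes (rows and columns), in 35 LS cells (left) and 12 NS cells (right), coloured from -1 in blue to 1 in red. Ptgds with Apod stands at 0.78 and 0.76, while pairs of the 7 oligodendrocyte genes in LS cells lie between -0.15 and 0.36.

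Ptgds and Apod followed different members of this set to different degrees. In LS cells Cldn11 had a rho of 0.39 with Ptgds and 0.58 with Apod, and all 11 cells with Cldn11 also had both genes. Mal had a rho of 0.32 and 0.42, Trf of 0.38 and 0.33, Mobp of -0.076 and 0.24, Mag of -0.044 and 0.002, Mog of 0.22 and 0.14, and Cnp of -0.31 and -0.16. Taken as a score (the mean of log2(FPKM + 1) over the 7 genes), they had a rho of 0.16 with Ptgds and 0.46 with Apod. Without Cldn11, a score chosen after these values were seen, the rho was -0.086 with Ptgds and 0.21 with Apod. Of the 25 LS cells with Ptgds at 1000 FPKM or more, 5 had all 7 genes under 1 FPKM, and of all 35 LS cells 8 did.

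Most of the other genes that define oligodendrocytes were at or near 0 in the LS cells. Of 20 such genes listed, 19 were in the table, and Olig1, Ppp1r14a and Nkx6-2 were at 0 in all 35 LS cells. The filters had removed cells with Olig1, Olig2 and Mbp all above 0 (1 LS cell, LS_8). These genes could therefore not occur together in the cells kept. Sox10 and Olig2, transcription factors of the lineage, had a value in 2 LS cells each, and Opalin in 1. Mbp, myelin basic protein, whose locus also makes Golli transcripts in other cells, was the one found in at least 50% of LS cells, with a value in 25 of 35 and a mean of 12.1 ± 18.2 FPKM (SD, n = 35). The summed FPKM of these 19 genes had a minimum of 0, a median of 14.5 and a maximum of 144 in LS cells, and a minimum of 0, a median of 43.7 and a maximum of 586 in NS cells. Their score had a rho of -0.17 with Ptgds, 0.043 with Apod and 0.30 with the score of the 7 oligodendrocyte genes over LS cells. Over all 46 LS cells, before the filters, the rho was -0.0036 with Ptgds and 0.016 with Apod. 

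The genes of leptomeningeal fibroblasts were present in the same LS cells and tracked Ptgds and Apod most closely of the 15 lists examined. The lists were chosen with earlier results of these data known, so their order is a description. The 14 genes of this list all had a value in some LS cell, and 7 of them in at least 50% of LS cells. Their summed FPKM had a minimum of 0, a median of 361 and a maximum of 4581 in LS cells, against 0, 108 and 1543 in NS cells. The score had a rho of 0.77 with Ptgds and 0.85 with Apod over the 35 LS cells, and of 0.53 and 0.64 over the 12 NS cells, which became 0.39 and 0.53 without NS_9. Of the 14 genes, 8 had a rho of 0.4 or more with Ptgds and 10 with Apod, where the share among all genes with a value in at least 5 LS cells was 2.5% for Ptgds and 3.98% for Apod. The median rho over the 14 genes was 0.45 with Ptgds and 0.55 with Apod, beside -0.050 and -0.032 over all genes tested.

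Individual genes of that list varied, and those named first lay above its median rho of 0.45 with Ptgds and 0.55 with Apod. Aldh1a2, the retinoic acid synthase of the meninges, had a value in 24 LS cells, a mean of 101 ± 168 FPKM (SD, n = 35) and a rho of 0.66 with Ptgds and 0.65 with Apod. Dcn, the matrix proteoglycan decorin, had a value in 22 LS cells, a mean of 117 ± 254 FPKM (SD, n = 35) and a rho of 0.64 and 0.66. Igf2, insulin-like growth factor 2, had a value in 31 LS cells and a rho of 0.61 and 0.68. Igfbp2, which binds such growth factors, had a rho of 0.64 and 0.67, and the collagen gene Col1a2 of 0.62 and 0.69. Cemip, a hyaluronan-degrading protein, was at the other end with a rho of -0.062 and 0.012. The cell LS_43, which had the highest Apod, Cldn11 and Trf, also had the highest value of 5 of these 14 genes among LS cells, and it had 1640 genes above 1 FPKM and a summed FPKM of 2.89 over 10 neuron genes, the lowest of the LS cells. Without LS_43 the rho of the leptomeningeal score was 0.75 with Ptgds and 0.84 with Apod. LS_24, with 0 FPKM of Ptgds and of Apod, also had 0 FPKM over all 14 genes.

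**Figure D4:**
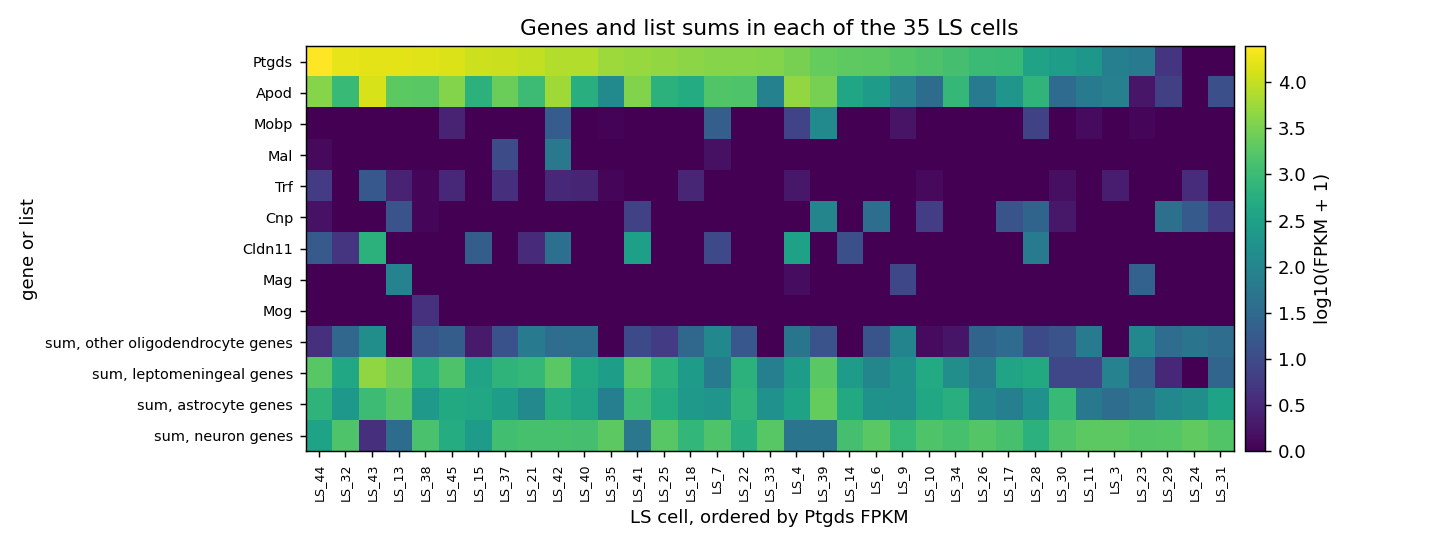
Values in each of the 35 LS cells (columns, ordered by Ptgds FPKM), as log10(FPKM + 1), for the 9 genes and for the summed FPKM of 4 lists (rows). Apod and the leptomeningeal sum fade from left to right with Ptgds, from sums of 1753 in LS_44 to 0 in LS_24, while the 7 oligodendrocyte genes appear as scattered single cells.

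Cldn11 had its highest rho over LS cells, 0.68, with the list of oligodendrocyte precursors. It was 0.56 with endothelial genes, 0.53 with the prostaglandin pathway, 0.51 with mural cells, 0.48 with the leptomeningeal score, 0.19 with the other oligodendrocyte genes and 0.092 with the score of the other 6 members. Mobp was the member with the highest rho to the other oligodendrocyte genes, at 0.39, and its rho with the leptomeningeal score was 0.12. For Cnp these values were -0.056 and -0.072. None of these differences between correlations was tested.

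The remaining lists gave intermediate or opposite values over LS cells. The 8 genes of mural cells, the contractile cells of vessels, had a rho of 0.54 with Ptgds and 0.65 with Apod. Within that list Vtn, the secreted protein vitronectin, had a rho of 0.72 and 0.59 and a mean of 170 ± 315 FPKM (SD, n = 35), whereas Rgs5 had a value in 1 LS cell, Acta2 in 3 and Kcnj8 in 0. The 8 genes of oligodendrocyte precursors had a rho of 0.40 and 0.51. Each of them had a value in 1 to 10 LS cells, with Bmp4, a secreted growth factor, in 10 (rho 0.35 and 0.54) and Pdgfra, a growth factor receptor, in 6 (rho 0.30 and 0.39). The 15 astrocyte genes had a rho of 0.15 and 0.24. The filters had removed cells in which Gfap, S100b and Aqp4, all genes of that list, were above 0 together. Over all 46 LS cells the astrocyte list had a rho of 0.14 and 0.092. Within that list the rho with Ptgds went from -0.36 for Gfap, an intermediate filament, to 0.61 for Gjb6, a connexin. Microglial genes had a rho of 0.11 and 0.26, and choroid plexus genes, another known source of Ptgds, of 0.29 and 0.38, with Ttr read in 5 LS cells. Endothelial genes had 0.17 and 0.33, blood genes -0.098 and 0.21, inhibitory neuron genes 0.22 and 0.23, the prostaglandin pathway 0.24 and 0.31, lipocalins and apolipoproteins 0.26 and 0.30, and iron handling 0.33 and 0.42. Excitatory neuron genes had -0.42 and -0.56. The 10 neuron genes ran the other way, with a rho of -0.49 with Ptgds and -0.66 with Apod, and Uchl1, Snap25 and Syp had -0.67, -0.61 and -0.60 with Apod. FPKM are shares of a library, so a high share of some genes lowers the share of others by construction. Ptgds took at most 4.80% of the reads on listed genes in an LS cell. The part of this effect in the negative rho of the neuron genes was not tested.

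**Figure D5:**
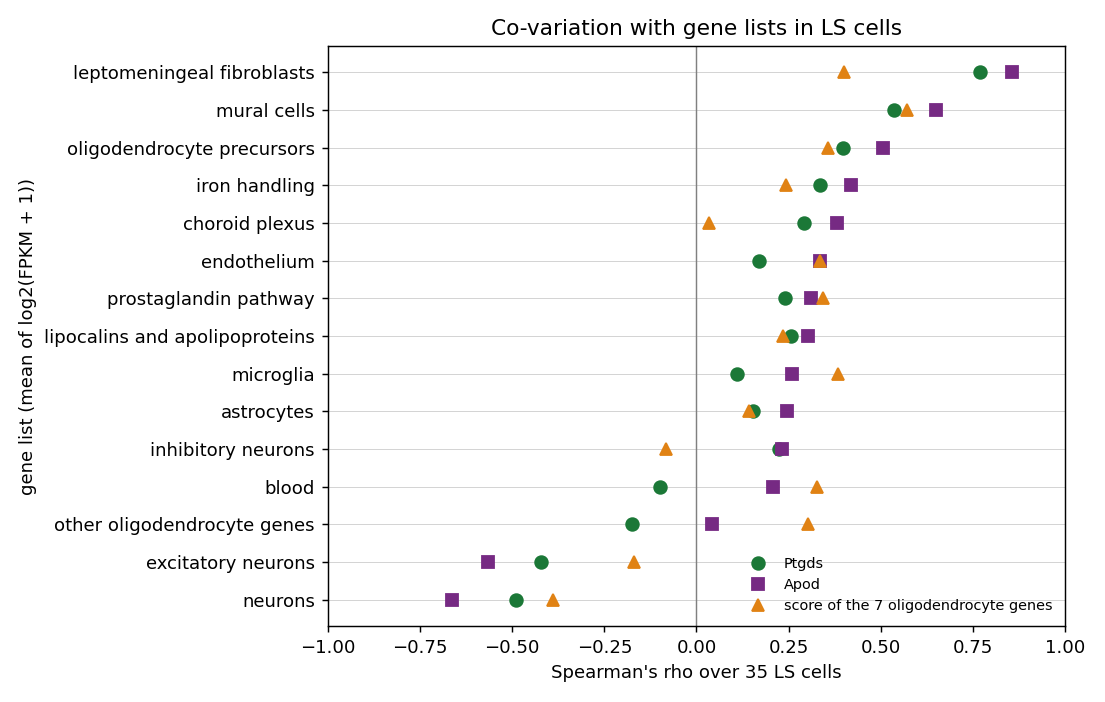
Spearman's rho over 35 LS cells between the score of each gene list (rows, mean of log2(FPKM + 1)) and Ptgds (green circles), Apod (purple squares) and the score of the 7 oligodendrocyte genes (orange triangles). The leptomeningeal list lies farthest right for Ptgds (0.77) and Apod (0.85), the other oligodendrocyte genes lie at -0.17 and 0.043, and the neuron list lies at -0.49 and -0.66.

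In NS cells the lists separated less. Apod had a rho of 0.80 with astrocyte genes, 0.80 with the other lipocalins and apolipoproteins, 0.64 with the leptomeningeal list and 0.40 with the other oligodendrocyte genes over 12 cells. Ptgds had 0.61, 0.41, 0.53 and 0.48. NS_9, which had the highest Ptgds and Apod, also had 738 FPKM of Aldh1a2, the highest NS value of that gene. Its summed FPKM over the other oligodendrocyte genes was 156, above the NS median of 43.7. It was below the 586 of NS_6, a cell with 0 FPKM of Apod, so this sum did not set NS_9 apart.

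The genes most like Ptgds and Apod were sought among 6121 genes with a value in at least 50% of LS cells. For Ptgds the first 9 were Slc13a4 (rho 0.79), Apod (0.78), Colec12 (0.74), Vtn (0.72), Aebp1 (0.70), Anxa5, Isyna1, Cyr61 and Aldh1a2 (0.66). Slc13a4, a sulfate transporter, had a value in 21 LS cells with a median of 22.9 and a maximum of 408 FPKM. For Apod they were Ptgds (0.78), Tmsb10 (0.76), Tcn2 (0.76), Serping1 (0.75), Pcolce (0.74), Rps27, Sparc, Hist1h1c, Isyna1 and Cyr61 (0.72). Serping1 encodes the C1 inhibitor, and Pcolce a secreted enhancer of collagen processing. The lists of 10 shared 2 genes, Isyna1 and Cyr61. Of the oligodendrocyte genes listed here, 0 of the 7 members and 1 of the other 19, Mbp, had a value in enough cells to be searched. For the score of the 7 oligodendrocyte genes the closest were Susd6 (0.71), Bgn (0.70) and Cxcl12 (0.66), followed by Gm8730, Sh3glb1, Sparc, Hist1h1c, Pttg1, Zfp36 and Rer1 (0.56). Of all genes with a value in at least 5 LS cells, 2.75% had a rho of 0.4 or more with that score.

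The other genes of prostaglandin synthesis did not share the level of Ptgds. Ptgs1 and Ptgs2, the cyclooxygenases that make its substrate, had means of 9.32 ± 17.4 and 14.9 ± 34.8 FPKM (SD, n = 35) in LS cells. Ptgs2, which is also known as a gene induced by neuronal activity, had a rho of -0.53 with Ptgds. Hpgds, the other prostaglandin D synthase, had a mean of 9.59 ± 23.01 FPKM. Ptgdr and Ptgdr2, the receptors for prostaglandin D2, had a value in 7 LS cells and 1. Of the 22 genes of this list, 19 had a mean of at least 1 FPKM in either group, of which 4 were at least 4-fold higher in LS cells and 3 at least 4-fold lower, where the shares over all genes were 22.2% and 27.3%. Of the 16 with a value in at least 5 LS cells, 0 had a rho of 0.4 or more with Ptgds (2.5% of all genes) and 4 with Apod (3.98%).

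Among the 15 other lipocalins, apolipoproteins and their receptors, Apoe, the lipid carrier of astrocytes and meninges, averaged 1576 ± 1967 FPKM over LS cells (SD, n = 35), which ranked 10, and a rho of 0.64 with Ptgds and 0.61 with Apod. Clu, another secreted apolipoprotein, was as widely present (33 LS cells) but had a rho of 0.072 and 0.052. Bsg, a receptor proposed for Apod, had a value in all 35 LS cells, with a rho of 0.35 and 0.40. Of the 11 other genes of iron handling, Cp, the ferroxidase ceruloplasmin, had a rho of 0.51 with Ptgds and 0.62 with Apod, and Ftl1 had 0.55 with both. Tfrc, the receptor of transferrin, had -0.27 and -0.41.

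The comparison of LS with NS cells asks which genes mark light-sensitive neurons. Of the 9 genes, 3 had an LS mean at least 4-fold above the NS mean (Ptgds 7.81-fold, Apod 12.2-fold and Cldn11 35.8-fold), 2 lay at least 4-fold lower (Mobp and Mog), and 4 lay between. All NS reads of Mog came from NS_15, and without that cell its NS mean was 0. Among all 16403 genes with a mean of at least 1 FPKM in either group, 22.2% were at least 4-fold higher in LS cells and 27.3% at least 4-fold lower. Such ratios were therefore common, and Ptgds and Apod were chosen by their LS means, which enter their ratios. The log2 ratio was 2.97 for Ptgds and 3.61 for Apod, and the median over the 7 oligodendrocyte genes was -1.81, beside -0.19 over all genes tested. Leaving out NS_9 moved the log2 ratio to 5.09 for Ptgds and 5.08 for Apod. Leaving out NS_11 moved the median over the 7 genes to 0.80. In the 31 LS and 3 NS cells with a receptor-gene level under 10% of an even spread over exons, a subset added with these values in view, that median was 2.14 and 6 of the 9 genes were at least 4-fold higher in LS cells. No share over all genes is given for that subset, so the count is not a result about these genes. Mal, Cldn11 and Mog had no read in its 3 NS cells, where the floor was used. The ratio of Cldn11 was 20.03-fold without LS_43, and without NS_9, which held all its NS reads, it was at least 95.1-fold against a floor of 3 reads over the group. Over all 63 cells the log2 ratio was 2.22 for Ptgds and 2.34 for Apod. The leptomeningeal list had 6 of 14 genes at least 4-fold higher in LS cells and 1 at least 4-fold lower, with a median log2 ratio of 1.47, and the other oligodendrocyte genes had 2 and 6 of 11 with a median of -3.65.

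Of the 16 cells that the filters removed, 15 had Ptgds and 12 had Apod above 0 FPKM. LS_46, removed for a product score of astrocyte genes above 0, had 22559 FPKM of Ptgds and 5476 FPKM of Apod. NS_1, set as a cell with little cDNA, had 10190 and 541 FPKM. LS_8, the 1 cell removed for oligodendrocyte genes, had 3038 FPKM of Ptgds and 204 FPKM of Apod, below the LS medians of 3728 and 656 FPKM. That cell had 0 FPKM of Mobp and Mog, 29.5 FPKM of Cnp and 17.6 FPKM of Mag, with 423 FPKM summed over the other oligodendrocyte genes. NS_10 had 2601 FPKM of Apod at 232 FPKM of Ptgds and 3959 FPKM summed over the other oligodendrocyte genes, with 0 FPKM of all 7 members.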

How the data were processed

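Per the labels and the study's methods, the authors trimmed reads, aligned them to GRCm38 with STAR 2.5.3a, counted them with featureCounts and deposited FPKM per gene and cell for protein-coding genes. Reads were recovered from these FPKM values with GENCODE M21 exon lengths or lengths solved from the steps. Of the values above 0, 99.5% lay in genes so solved, and 99.998% of values under 200 reads came out within 0.01 of a whole number. The 4 rows with a repeated name were left out.

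The filters removed cells with little cDNA (2), under 1000 genes (1), a mitochondrial share above 25% (0), or a product score of astrocyte (10), oligodendrocyte (1) or joint excitatory and inhibitory genes (2) above 0. They kept fewer LS cells than the study did. LS_1 and NS_1 were set as the 2 cells with little cDNA, which FPKM do not show. The study also reports cells removed for their mitochondrial share, and fewer cells removed for glial scores. Members and gene lists were chosen with earlier results of these data known. Named genes are the 9 members, genes of the lists, and the 10 with the highest rho. Scores are means of log2(FPKM + 1), with a pseudocount of 1. A gene without reads in a group was set to 3 reads over that group. Python 3.11.15 with numpy 2.4.6, pandas 2.3.3 and scipy 1.17.1 was used, and the scripts were tested on simulated data. Alternatives are in the closing section. Results of some genes are not reported here.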

Additional observations from a re-analysis of the deposited data

How the results depend on the processing

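Each cell was a single library, each group was treated as 1 sample, and ratios are log2 of LS over NS. Ptgds and Apod stayed higher in LS cells under all 9 alternatives, at 2.07 to 5.97 and 2.34 to 7.16. With all 63 cells the ratios were 2.22 for Ptgds and 2.34 for Apod. With cells of at least 3000 genes (33 LS, 6 NS) they were 2.07 and 2.67, the median of the 7 oligodendrocyte genes was -0.65, and the rho of Ptgds with Apod in NS cells was 0.94. Thinning to 200000 reads (35 LS, 8 NS) gave 3.02 for Apod. Differences of mean log2(FPKM + 1) were 5.45, 5.73 and -0.25 for Ptgds, Apod and the median of the 7 genes, and with a pseudocount of 0.1 they were 5.97, 7.16 and -0.23. In cells with a receptor-gene level under 10% of an even spread over exons (31 LS, 3 NS), added after the data were seen, Ptgds was at 4.24, the median of the 7 genes turned to 2.14 and 6 members were at least 4-fold higher in LS cells. No share over all genes is given for that subset. A score without Cldn11, also added later, gave a rho of -0.086 with Ptgds, a turned sign, and 0.21 with Apod. The cause was not tested.

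Leaving out 1 cell at a time gave 2.82 to 5.09 for Ptgds and 3.26 to 5.08 for Apod, both highest without NS_9, and -1.94 to 0.80 for the median of the 7 genes, highest without NS_11. Mal was at -4.57 without LS_42 and, with NS cells at the floor of 3 reads, at 3.03 or more without NS_11. Mag was at -3.68 without LS_13 and 0.85 without NS_11, so both signs turned with NS_11. Trf was at -0.50 over the kept cells and turned to 0.72 without NS_9. Mog had an NS mean of 0 without NS_15. The cells left out here were chosen after the values were seen. The rho of Ptgds with Apod in LS cells stayed between 0.76 and 0.81, and that of the leptomeningeal score between 0.75 and 0.81 for Ptgds and 0.84 and 0.88 for Apod. No paired analysis was possible because the number of a cell names it and pairs no LS cell with an NS cell, and no test was made. The FPKM depth of NS cells (median 316252 reads) limits what can be said of transcripts with few reads there, and no label separates mice.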
